A study of Homo sapiens with 6 samples.

Results

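Interleukin receptor genes were described here from the H3K27ac peaks over their bodies or within 50 kb of them (hg38): IL7R, IL2RA, IL2RB, IL4R, IL21R, IL6R, IL10RA and IL18R1. These 8 genes, of 19974 protein-coding genes on chromosomes 1 to 22 and X, were set by name, and no measured value enters the rule. Their windows held 85 of 83410 peaks, made up of 30 in the 6T-CEM list, 8 in that of Jurkat replicate 1 and 47 in that of Jurkat replicate 2. H3K27ac, acetylation of lysine 27 of histone H3, marks active promoters and enhancers. One library came from 6T-CEM and 2 from Jurkat, established lines derived from human T-cell leukaemia (T-ALL), and the series text names CUT&Tag as the assay. The 3 IgG samples were not analysed here. GNE-987, an agent directed at BET proteins, stands in the series title with a dose of 10 nM and a time of 24 h in the series text, but no label says which library, if any, was treated.

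Interleukin receptors are cell surface proteins that pass cytokine signals to the nucleus, mostly through JAK kinases and STAT transcription factors. IL7R, IL2RA, IL2RB, IL4R and IL21R encode chains of receptors that share the common gamma chain, the product of IL2RG. IL-7 signalling through IL7R sustains early T-cell precursors, and IL7R is mutated to a constantly active form in some T-ALL. IL-6 and IL-10 receptors belong to neighbouring cytokine receptor families, while IL18R1 belongs to the IL-1 receptor family and signals through MYD88 and IRAK kinases.

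On chromosomes 1 to 22 and X the list of 6T-CEM held 35154 peaks, that of Jurkat replicate 1 held 16159 and that of Jurkat replicate 2 held 32097. Read counts are not in these lists, so sequencing depth is unknown. T-lineage marker genes (CD3D, CD3E, CD3G, CD247, CD2, CD5, CD7 and LCK) had peaks in their windows in every library, 8 of 8 (56.3% of all genes). Their summed bases were 113618 bp in 6T-CEM, 113315 bp in Jurkat replicate 1 and 147263 bp in Jurkat replicate 2. 6T-CEM exceeded each Jurkat library at 2 (52.3% of all genes with bases) and fell short of each at 4 (15.3%). The median log2 ratio of 6T-CEM to the Jurkat mean over these markers, on the centred scale explained with IL21R, was −0.93. CD3D, CD3E and CD3G, neighbours with overlapping windows, are among the 4, so bases they share enter the sums, this count and the median more than once. Of 16 markers of other blood cells, 9 had bases in at least 1 library, and EBF1, MS4A1, NCAM1, NCR1, KIR2DL4 and HBB were among those with none in any library. In 6T-CEM the summed bases were 16362 bp for the B-lineage markers, 18921 bp for the myeloid, 1703 bp for the NK and 12372 bp for the erythroid markers. In Jurkat replicate 1 these sums were 8356, 1862, 7184 and 6453 bp, and in Jurkat replicate 2 they were 14023, 10390, 681 and 10605 bp. Their part in the results was not tested. No test was run, since 6T-CEM has 1 library, and only the Jurkat libraries allow a comparison within a line. Separate cultures are not stated for the Jurkat replicates, so the difference between them may be technical. Their peak names also begin differently, with Jur in replicate 1 and Jur-NE in replicate 2, and no label says whether either was treated. Replicate error and a difference in condition cannot be told apart here.

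The promoter sequences printed are those of IL7R and IL21R, where a 6T-CEM peak reached the 300-base window, and of IL4R, where no library had one. The promoter windows of IL2RA, IL6R, IL10RA and IL18R1, not printed, also had no peak in any library. They run 5′ to 3′ from 250 bases before to 50 bases after the RefSeq start site (GRCh38.p14, the build of hg38). Capitals mark matches on either strand to the motifs of RUNX, which is TGTGGT, of GATA factors, which is AGATAA, or of the GC box, which is GGGCGG.
IL7R (chr5:35856641-35856940, plus strand): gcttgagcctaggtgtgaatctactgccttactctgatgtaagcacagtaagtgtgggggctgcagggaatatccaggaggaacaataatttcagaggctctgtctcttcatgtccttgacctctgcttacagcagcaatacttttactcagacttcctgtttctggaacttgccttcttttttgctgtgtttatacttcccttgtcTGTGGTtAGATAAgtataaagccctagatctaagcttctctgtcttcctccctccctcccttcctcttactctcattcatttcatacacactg
IL21R (chr16:27427021-27427320, plus strand): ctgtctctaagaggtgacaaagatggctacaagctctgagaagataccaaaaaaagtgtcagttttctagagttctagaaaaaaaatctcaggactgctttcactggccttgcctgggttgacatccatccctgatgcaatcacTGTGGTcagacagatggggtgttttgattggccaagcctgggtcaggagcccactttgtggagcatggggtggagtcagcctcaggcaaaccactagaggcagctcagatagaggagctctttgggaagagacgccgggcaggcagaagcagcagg
IL4R (chr16:27313724-27314023, plus strand): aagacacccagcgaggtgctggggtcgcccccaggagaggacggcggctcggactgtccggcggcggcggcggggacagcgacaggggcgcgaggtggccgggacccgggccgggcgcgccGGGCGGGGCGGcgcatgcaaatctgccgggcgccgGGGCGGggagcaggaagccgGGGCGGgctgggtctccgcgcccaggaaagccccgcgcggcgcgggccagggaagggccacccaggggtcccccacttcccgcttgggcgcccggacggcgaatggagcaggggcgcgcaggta

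In the IL7R promoter TGTGGT began at position −43 and AGATAA at −36, counted from the start site as 0, with a single base between them. The IL21R promoter held TGTGGT at −106. The IL4R promoter held GGGCGG at −129, −124, −94 and −74, of which the first and second matches share a base. Of 34961 RefSeq promoters of the same length, 13.1% held TGTGGT, 10.3% AGATAA and 45.03% GGGCGG on either strand. The other motifs searched, CAGCTG (E-box), CCGGAA (ETS), TTCNNNGAA (STAT), TGANTCA (AP-1) and TGACGTCA (CRE), had no match in these 3 windows. Among the promoters not printed, that of IL10RA matched the GATA, E-box and AP-1 motifs. Those of IL18R1 matched the ETS, GC box and GATA motifs, that of IL6R the AP-1 motif and that of IL2RA none. These motifs therefore do not separate promoters with a peak from those without. G and C made up 44.3% of the IL7R window, 51.0% of the IL21R window and 79.3% of the IL4R window, against a median of 58.7% over all promoters. A match is a stretch of letters and not evidence of a bound factor. Promoters were listed for 7 of the 8 genes, IL2RB being the other.

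Across the 8 genes, H3K27ac was sparse at start sites and uneven between loci. The IL21R locus in 6T-CEM and the IL2RB, IL4R and IL21R loci in Jurkat replicate 2 carried most of the peaks. IL7R was marked in 6T-CEM and Jurkat replicate 1 but not in Jurkat replicate 2, IL2RA had a single peak that lies at a neighbouring gene, IL6R and IL10RA had 1 or 2 peaks in 1 library, and IL18R1 had none. Windows with a peak numbered 6 of 8 in 6T-CEM (71.9% of all protein-coding genes), 5 in Jurkat replicate 1 (65.3%) and 5 in Jurkat replicate 2 (65.9%). In every library 4 windows had one (56.3%), and 1 window had none in any library (21.7%). IL4R and IL21R, neighbours with overlapping windows, are both among the 4. The only Jurkat replicate 1 peak in the IL21R window also lies in that of IL4R.

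Peaks over the gene bodies themselves were found for 3 genes in 6T-CEM (47.9% of all genes), 0 in Jurkat replicate 1 (41.3%) and 4 in Jurkat replicate 2 (41.7%). A peak within 1 kb of a RefSeq start site was found for 2 genes in 6T-CEM, IL7R and IL21R, and for 0 in either Jurkat library. Over the 15812 protein-coding genes with a listed start site, this share was 42.9% for 6T-CEM, 41.0% for Jurkat replicate 1 and 34.6% for Jurkat replicate 2. For IL2RB, without a listed start, both annotated ends were used.

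**Figure D1:**
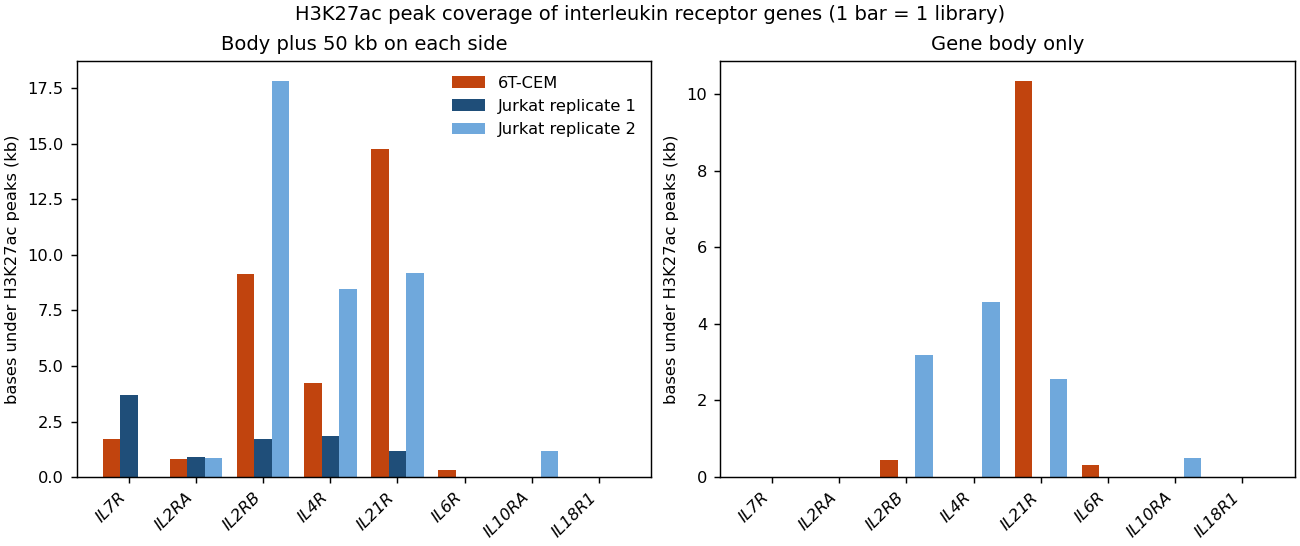
Bases under H3K27ac peaks (kb, vertical axis) for each interleukin receptor gene, within the body plus 50 kb on each side (left) and within the body alone (right), with 1 bar per library. IL21R in 6T-CEM (14786 bp, 10340 bp in the body) and IL2RB in Jurkat replicate 2 (17828 bp) are the tallest bars, and Jurkat replicate 1 has none in any body.

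IL21R, the receptor for the T-helper cytokine IL-21, had the widest acetylation of the 8 in 6T-CEM. Peaks covered 14786 bp of its window in 6T-CEM, against 1190 bp in Jurkat replicate 1 and 9169 bp in Jurkat replicate 2. The share of the window was 9.87% for 6T-CEM, 0.794% for Jurkat replicate 1 and 6.12% for Jurkat replicate 2, compared with medians over all genes of 1.05% for 6T-CEM, 0.687% for Jurkat replicate 1 and 0.686% for Jurkat replicate 2. 6T-CEM lay above both Jurkat libraries, and the Jurkat libraries differed more from each other than 6T-CEM did from replicate 2. After adding 500 bp and centring on the median of 15640 genes, 6T-CEM over the Jurkat mean gave a log2 ratio of 1.08. Set against replicate 1 by itself the value was 2.65, and against replicate 2 by itself 0.39.

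Within the IL21R body (chromosome 16, 27402174 to 27452042) the order was the same, with 10340 bp over 11 peaks in 6T-CEM, 0 bp in Jurkat replicate 1 and 2568 bp over 5 peaks in Jurkat replicate 2. Most of these bases in 6T-CEM lay between the start site at 27427271 and the far end of the gene. There peaks covered 34.8% of 24772 bp in 6T-CEM, against 0% in Jurkat replicate 1 and 8.93% in Jurkat replicate 2. In the part of the body before this start, the cover was 6.85% for 6T-CEM, 0% for Jurkat replicate 1 and 1.42% for Jurkat replicate 2.

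At the start site itself, a 6T-CEM peak of 694 bp (27427050 to 27427743, fold 6.23) covered 271 of the 300 bases printed above. A second one of 377 bp (27426343 to 27426719) lay just upstream and had the highest fold of the IL21R window in 6T-CEM, 7.12. The closest Jurkat replicate 2 peak began 2.72 kb after the start (27429989 to 27430629, fold 6.74), and the closest Jurkat replicate 1 peak lay 58.7 kb away. Fold enrichments are the authors' own values per peak, over their peak caller's background. The widest IL21R peak of 6T-CEM, 2071 bp at 27431920 to 27433990 with a fold of 6.27, had no overlapping peak in either Jurkat library.

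Several elements were present in both lines. Of the 11 peaks in the IL21R body of 6T-CEM, those at 27405487 to 27406608, 27430094 to 27431602, 27438823 to 27439986, 27446178 to 27447167, 27448241 to 27449219 and 27449564 to 27449994 overlapped Jurkat replicate 2 peaks by 357, 536, 429, 344, 263 and 190 bp. No Jurkat replicate 1 peak lay in the body. The peaks from 27448241 on also lie over the antisense gene IL21R-AS1, and peaks carry no strand. When peaks within 12.5 kb were joined, the IL21R region spanned 38.2 kb in 6T-CEM (rank 818 of 13075 by width times fold) and 34.5 kb in Jurkat replicate 2 (rank 2063 of 11190). Neither was among the large regions, those beyond the point at which the ranked scores, scaled to equal axes, rise with a slope of 1, which numbered 585 in 6T-CEM and 584 in Jurkat replicate 2.

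IL4R, which encodes the alpha chain of the IL-4 and IL-13 receptors, is the neighbour of IL21R, 37.4 kb away, so their windows share 62.6 kb, with 4 peaks of 6T-CEM, 1 of Jurkat replicate 1 and 7 of Jurkat replicate 2. The IL4R window held 4254 bp in 6T-CEM, 1831 bp in Jurkat replicate 1 and 8461 bp in Jurkat replicate 2. 6T-CEM lay between the Jurkat libraries, and the direction of its difference followed the Jurkat library used, with a log2 ratio of 0.50 against replicate 1, −1.19 against replicate 2 and −0.59 against their mean. Within 100 kb of the body, which takes in the whole IL21R body, 6T-CEM had 26130 bp, Jurkat replicate 1 2756 bp and Jurkat replicate 2 21115 bp.

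The IL4R body (chromosome 16, 27313756 to 27364778) differed in layout from that of IL21R, with 0 bp in 6T-CEM, 0 bp in Jurkat replicate 1 and 4565 bp over 7 peaks in Jurkat replicate 2. The strongest of these lay 13.0 kb after the start site by its summit (27326525 to 27327601, fold 6.61). The annotated IL4R start had no peak near it in any library, the closest lying 53.0 kb away in 6T-CEM, 44.9 kb in Jurkat replicate 1 and 12.6 kb in Jurkat replicate 2.

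Just beyond the far end of IL4R stood the element shared by all 3 libraries. The peaks lay at 27366954 to 27368474 in 6T-CEM (fold 6.52), 27367333 to 27368522 in Jurkat replicate 1 (fold 9.21) and 27366877 to 27368366 in Jurkat replicate 2 (fold 4.33). It begins 2.18 kb past the gene in 6T-CEM, 2.56 kb in Jurkat replicate 1 and 2.10 kb in Jurkat replicate 2. It held the highest −log10 q of the IL4R window in 6T-CEM (19.0) and Jurkat replicate 1 (18.0), and was the only peak of Jurkat replicate 1 between NSMCE1 and the end of the IL21R window. The only region of the 8 windows with peaks in both Jurkat libraries and not in 6T-CEM also lay in this locus, over NSMCE1 (27268424 to 27269064 in replicate 1, fold 5.78; 27268456 to 27269287 in replicate 2, fold 4.37). NSMCE1 encodes a subunit of the SMC5/6 complex.

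**Figure D2:**
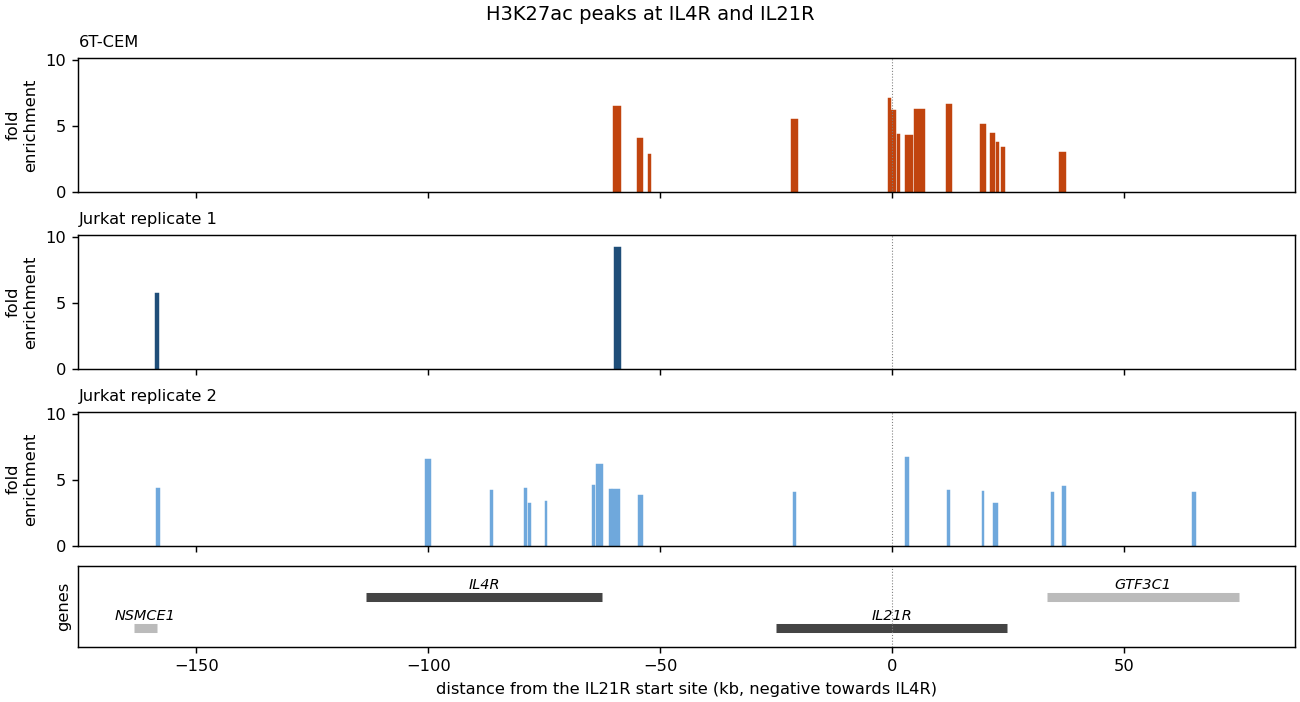
Peaks of each library at IL4R and IL21R, drawn to scale by distance from the IL21R start site (kb, horizontal axis) with the authors' fold enrichment as height, above the bodies of protein-coding genes. 6T-CEM peaks stand at and after the IL21R start, Jurkat replicate 2 peaks lie over both genes, and the element just past IL4R is in all 3 libraries.

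IL7R, which encodes the alpha chain of the IL-7 receptor, had 1717 bp over 4 peaks in 6T-CEM, 3697 bp over 3 peaks in Jurkat replicate 1 and 0 bp in Jurkat replicate 2. The Jurkat libraries lay on either side of 6T-CEM, so no difference between the lines exceeded the replicate difference. The log2 ratio of 6T-CEM was −1.45 against replicate 1 and 1.88 against replicate 2. The closest Jurkat replicate 2 peak to the body was 92.0 kb away. No peak lay over the IL7R body (chromosome 5, 35856891 to 35879603) in any library.

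At the IL7R start, 6T-CEM had a peak of 400 bp at 35856275 to 35856674 with a fold of 6.84. It ended 0.217 kb before the start site, overlapped the printed promoter by 34 bases, and did not reach the TGTGGT and AGATAA letters, which lie at 35856848 to 35856853 and 35856855 to 35856860. Neither Jurkat library had a peak there, the closest being 27.3 kb away in replicate 1 and 114.7 kb in replicate 2.

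Downstream of IL7R, 6T-CEM and Jurkat replicate 1 each had peaks in the same stretch before CAPSL, which encodes a calcyphosine-like protein. The 6T-CEM peak of highest fold, 10.7 at 35883128 to 35883645, lay 540 bp short of the Jurkat replicate 1 peak of highest fold, 13.0 at 35884186 to 35885412, and did not overlap it. These folds stood at percentile 96.3 of the 6T-CEM list and 99.1 of the Jurkat replicate 1 list, the highest percentiles of any peak in the 8 windows in these libraries. Further out, the 6T-CEM peak at 35900433 to 35900882 (fold 7.27) shared 380 bp with the Jurkat replicate 1 peak at 35900503 to 35901721 (fold 7.59). A further Jurkat replicate 1 peak at 35899015 to 35900265 (fold 7.33) and a 6T-CEM peak at 35891988 to 35892336 (fold 4.10) had no counterpart. These peaks, from 35891988 on, lie closer to CAPSL than to IL7R.

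**Figure D3:**
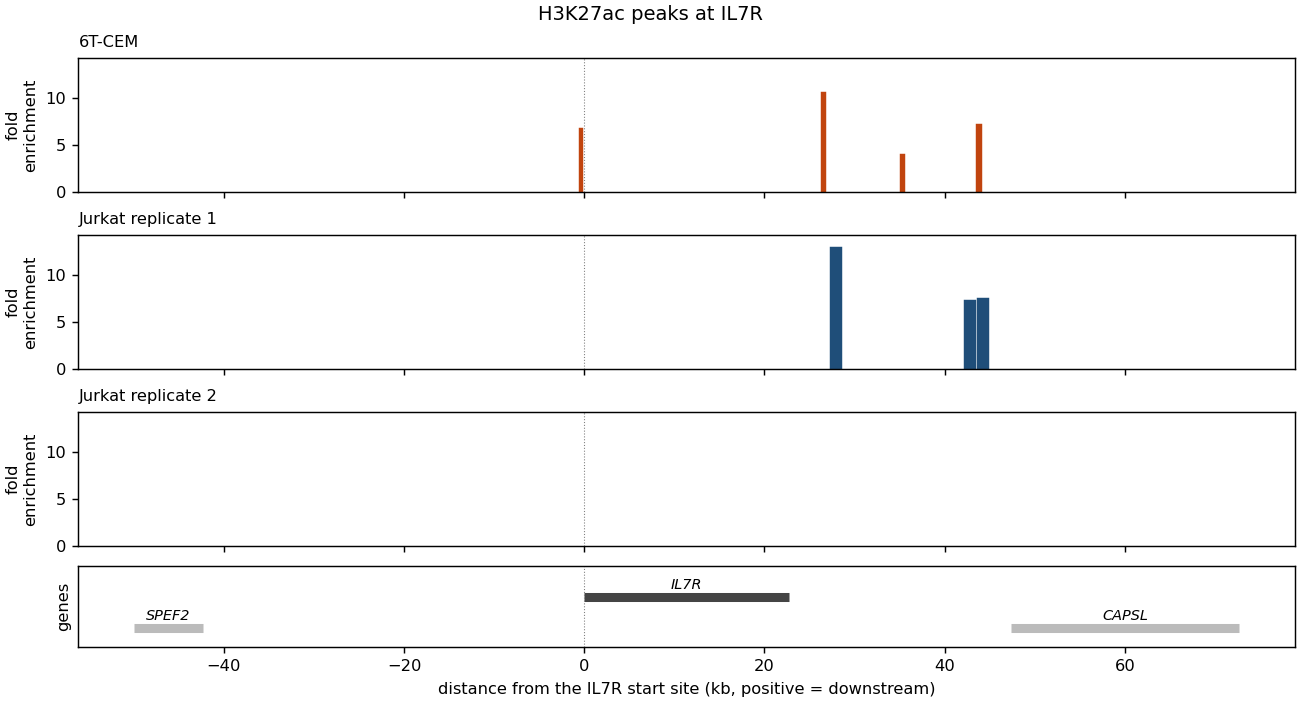
Peaks of each library at IL7R by distance from its start site (kb, horizontal axis), with the authors' fold enrichment as height. 6T-CEM has 4 peaks, 1 of them beside the start, Jurkat replicate 1 has 3 peaks downstream of the gene, and Jurkat replicate 2 has none.

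IL2RB, the beta chain shared by the IL-2 and IL-15 receptors, was the gene with the widest gap between the Jurkat libraries in bases. Its window held 9153 bp over 9 peaks in 6T-CEM, 1737 bp over 2 peaks in Jurkat replicate 1 and 17828 bp over 25 peaks in Jurkat replicate 2. 6T-CEM lay between the Jurkat libraries, and its log2 ratio was 1.58 against replicate 1, −1.20 against replicate 2 and −0.44 against their mean. At equal list length, where each list kept its 16159 most significant peaks by −log10 q, the values were 7000 bp in 6T-CEM, 1737 bp in Jurkat replicate 1 and 7426 bp in Jurkat replicate 2 and the ratio to the mean was 0.54.

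Most of these bases lay closer to other genes than to IL2RB. Peaks nearest to IL2RB numbered 2 in 6T-CEM (841 bp), 0 in Jurkat replicate 1 and 7 in Jurkat replicate 2 (4316 bp). Those nearest to SSTR3, a somatostatin receptor gene, summed to 4621 bp in 6T-CEM, 540 bp in Jurkat replicate 1 and 8835 bp in Jurkat replicate 2. Those nearest to C1QTNF6 summed to 2285 bp in 6T-CEM, 1197 bp in Jurkat replicate 1 and 3738 bp in Jurkat replicate 2. The outermost peaks beyond SSTR3 belonged to joined regions that run on over RAC2, which encodes a small GTPase of blood cells. These regions were among the large ones in every library, at rank 283 for 6T-CEM, 251 for Jurkat replicate 1 and 85 for Jurkat replicate 2.

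In the IL2RB body (chromosome 22, 37125838 to 37175118) peaks covered 445 bp in 6T-CEM, 0 bp in Jurkat replicate 1 and 3196 bp over 6 peaks in Jurkat replicate 2. The 6T-CEM peak, at 37165898 to 37166342 with a fold of 4.37, ended 417 bp before the RefSeq start of the antisense gene IL2RB-AS1 (37166759) and overlapped no Jurkat peak. Just outside the lower end of IL2RB, 6T-CEM (37122152 to 37122547, fold 3.09) and Jurkat replicate 2 (37121439 to 37122558, fold 5.59) shared an element. In 6T-CEM the closest peaks to the lower and upper ends were 3.29 and 8.78 kb away. In Jurkat replicate 1 they were 72.9 and 23.6 kb away, and in Jurkat replicate 2 they were 3.15 and 5.78 kb away.

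**Figure D4:**
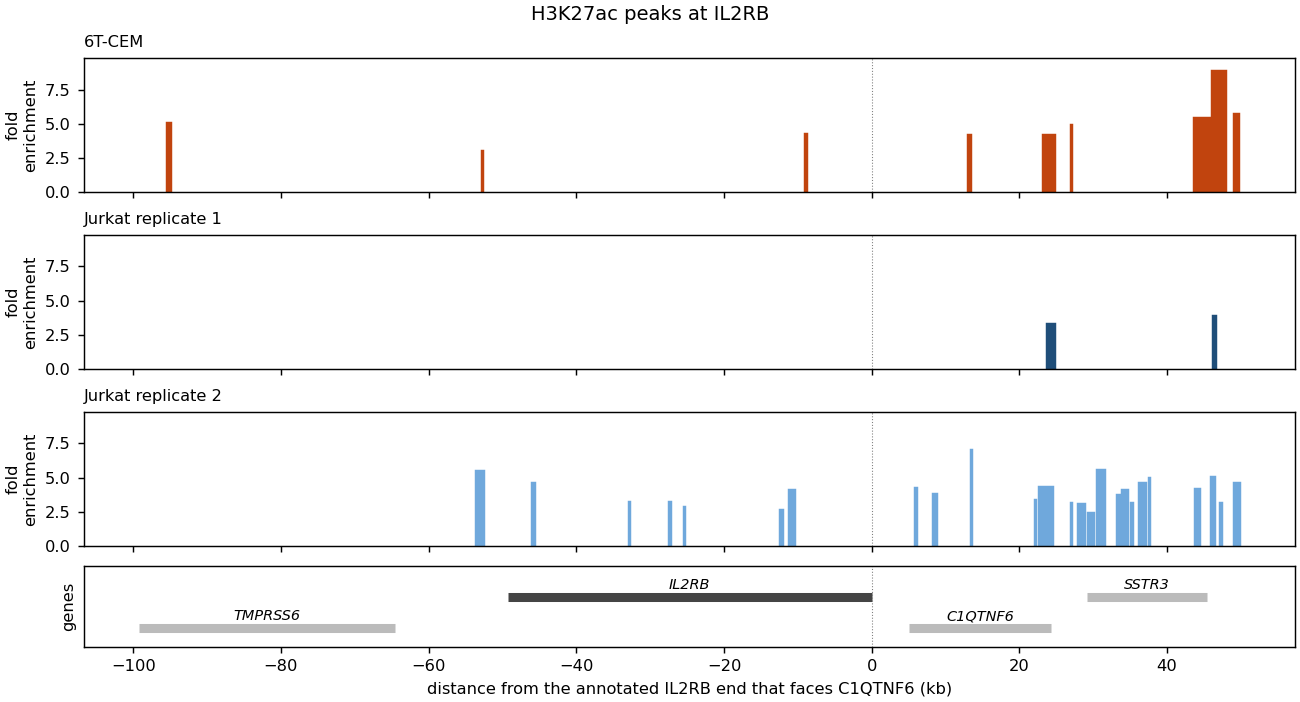
Peaks of each library at IL2RB by distance from the annotated IL2RB end that faces C1QTNF6 (kb, horizontal axis), with the authors' fold enrichment as height. Jurkat replicate 2 peaks run across the gene and its flank, 6T-CEM has 1 peak in the body, and the Jurkat replicate 1 peaks lie 23.6 kb or more outside it.

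IL2RA encodes the alpha chain (CD25) that raises the affinity of the IL-2 receptor and is a marker of activated and regulatory T cells. Its window held 832 bp in 6T-CEM, 911 bp in Jurkat replicate 1 and 839 bp in Jurkat replicate 2, the most even values of the 7 genes with bases. In each library this was 1 peak, at 6089146 to 6089977 on chromosome 10 in 6T-CEM, 6088985 to 6089895 in Jurkat replicate 1 and 6089001 to 6089839 in Jurkat replicate 2, that overlaps RBM17, a splicing factor gene. It lay 26.8 kb from IL2RA in 6T-CEM and 26.6 kb in each Jurkat library. No peak lay over the IL2RA body in any library, and by nearest gene IL2RA had 0 bp throughout. Within 100 kb the values were 1280 bp in 6T-CEM, 911 bp in Jurkat replicate 1 and 839 bp in Jurkat replicate 2, so the direction of the difference depends on the window. Within 50 kb 6T-CEM was below both Jurkat libraries, but it differed from Jurkat replicate 2 by less than the Jurkat libraries differed from each other.

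IL6R, the ligand-binding chain for IL-6, had 309 bp in 6T-CEM, against 0 bp in each Jurkat library. The only peak (chromosome 1, 154463990 to 154464298, fold 3.91, −log10 q 4.02) lay 58.6 kb past the start site, near the far end of the gene. It was not kept among peaks with −log10 q of 5 or more, nor at equal list length. The closest Jurkat peaks to the body were 78.6 kb away in replicate 1 and 62.0 kb in replicate 2.

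IL10RA, the ligand-binding chain for the anti-inflammatory cytokine IL-10, had 0 bp in 6T-CEM, 0 bp in Jurkat replicate 1 and 1159 bp over 2 peaks in Jurkat replicate 2. One lay in the body at 117999527 to 118000033 on chromosome 11 (fold 3.47), 9.58 kb from the start site. The second (117940951 to 117941602, fold 3.78) lay nearest to TMPRSS13, a membrane protease gene. The closest peaks to the body were 54.6 kb away in 6T-CEM and 53.7 kb in Jurkat replicate 1. Within 100 kb 6T-CEM had 560 bp, Jurkat replicate 1 had 2478 bp and Jurkat replicate 2 had 9127 bp.

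IL18R1, the ligand-binding chain for IL-18, was the gene without any peak in its window. The nearest peak to its body lay 291.4 kb away in 6T-CEM, 351.8 kb in Jurkat replicate 1 and 351.9 kb in Jurkat replicate 2. Within 100 kb of its body it again had 0 bp in every library.

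Between the lines, 6T-CEM exceeded each Jurkat library at 2 of the 7 genes with bases, IL21R and IL6R, against 52.3% of 15640 protein-coding genes that had bases in some library. It fell short of each at 1, IL2RA, against 15.3%. None was at least 2-fold above both Jurkat libraries (14.9%) or 2-fold below both (2.74%) after adding 500 bp. The Jurkat libraries were at least 2-fold apart at 5 of the 7 genes, against 34.7% of all genes with bases. IL4R and IL21R, whose windows share 62.6 kb, are both among the 5. Bases they share enter this count and the medians that follow more than once. The centred log2 ratio of 6T-CEM to the Jurkat mean had a median of −0.41 over the 8 genes, and that of Jurkat replicate 1 to replicate 2 had a median of −0.69.

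The peaks formed 61 union regions in the 8 windows. Of these, 12 were in 6T-CEM alone (19.7%, against 32.2% of 49528 regions in all), 29 in Jurkat replicate 2 alone (47.5%, against 23.9%) and 2 in Jurkat replicate 1 alone (3.28%, against 5.39%). The IL2RB window by itself, with its neighbouring genes, held 17 of the 29 regions of Jurkat replicate 2 alone. 6T-CEM shared 12 with Jurkat replicate 2 only (19.7%, against 14.5%) and 1 with Jurkat replicate 1 only (1.64%, against 3.32%). All libraries shared 4 (6.56%, against 17.4%): 1 at RBM17, 2 in the IL2RB window and the element past IL4R. The Jurkat libraries shared 1 that 6T-CEM lacked (1.64%, against 3.20%), at NSMCE1. At equal list length the regions of Jurkat replicate 2 alone numbered 11 and those of 6T-CEM with Jurkat replicate 2 numbered 2. Of the 30 peaks of 6T-CEM, 5 overlapped a Jurkat replicate 1 peak (16.7%, against 32.1% of the whole list) and 17 a Jurkat replicate 2 peak (56.7%, against 49.2%). Of the 8 peaks of Jurkat replicate 1, 5 overlapped 6T-CEM (62.5%, against 72.0%) and 5 overlapped replicate 2 (62.5%, against 71.6%). Of the 47 peaks of Jurkat replicate 2, 17 overlapped 6T-CEM (36.2%, against 57.1%) and 5 overlapped replicate 1 (10.6%, against 35.8%).

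Partner chains of these receptors were marked unevenly as well. IL2RG, the common gamma chain gene, had 17654 bp in 6T-CEM, 7502 bp in Jurkat replicate 1 and 13496 bp in Jurkat replicate 2, with a peak within 1 kb of a start site in every library. IL10RB, the second chain of the IL-10 receptor, had 8925 bp in 6T-CEM, 14354 bp in Jurkat replicate 1 and 16270 bp in Jurkat replicate 2, so 6T-CEM lay below both Jurkat libraries. IL6ST, which encodes the gp130 chain of the IL-6 receptor, had 0 bp in 6T-CEM, 324 bp in Jurkat replicate 1 and 1235 bp in Jurkat replicate 2. IL18RAP, the partner of IL18R1, and IL13RA1, which pairs with IL4R, had 0 bp in every library.

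Of 23 further interleukin receptor genes, 16 had bases in a library. 6T-CEM exceeded each Jurkat library at 8 of them (52.3% of all genes with bases) and fell short of each at 3 (15.3%), and at equal list length these counts were 4 and 4. IL17RC and IL17RE, singled out after their values were seen, share the same peaks and count as 2 of the 8. IL17RA, a receptor for IL-17, had 31749 bp in 6T-CEM, 4018 bp in Jurkat replicate 1 and 11046 bp in Jurkat replicate 2, at least 2-fold above both. IL20RB had 2465 bp in 6T-CEM and none in either Jurkat library, also past 2-fold on the scale with 500 bp added. Genes of this list past 2-fold above, 2 as reported (14.9% of all genes with bases), numbered 1 with −log10 q of 5 or more and 1 at equal list length. They numbered 3 within 10 kb, 3 by nearest gene, 4 without Jurkat replicate 1 and 3 without Jurkat replicate 2. IL27RA had 15181 bp in 6T-CEM, 7965 bp in Jurkat replicate 1 and 18003 bp in Jurkat replicate 2, IL12RB1 had 13447 bp in 6T-CEM, 3610 bp in Jurkat replicate 1 and 13847 bp in Jurkat replicate 2, and IL11RA had 3356 bp in 6T-CEM, 3337 bp in Jurkat replicate 1 and 3211 bp in Jurkat replicate 2. The other 7 genes had 0 bp throughout.

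Of the 9 ligand genes, 3 had bases. 6T-CEM exceeded each Jurkat library at 1 of these (52.3% of all genes with bases) and fell short of each at 0 (15.3%). The counts were 1 and 2 at equal list length. IL10, the ligand of IL10RA, had 12724 bp in 6T-CEM, 354 bp in Jurkat replicate 1 and 3753 bp in Jurkat replicate 2, at least 2-fold above both. Within 10 kb, for the body alone and by nearest gene, 0 ligand genes passed 2-fold. IL4 and IL13, neighbours with overlapping windows, each had 5674 bp in 6T-CEM, 5623 bp in Jurkat replicate 1 and 10501 bp in Jurkat replicate 2. IL2, IL6, IL7, IL15, IL18 and IL21 had 0 bp in every library.

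All 12 signalling genes had peaks in every library (56.3% of all genes), and in each library 11 had one within 1 kb of a start site. Over all genes with a listed start, the latter share was 42.9% for 6T-CEM, 41.0% for Jurkat replicate 1 and 34.6% for Jurkat replicate 2. At 7 of them 6T-CEM exceeded each Jurkat library (52.3% of all genes with bases) and at 2 it fell short of each (15.3%), or 6 and 4 at equal list length. Over the list the median of the centred log2 ratios was 0.20, and −0.085 when bases were weighted by fold. STAT5B, which acts downstream of IL-2 and IL-7, had 46652 bp in 6T-CEM, 25245 bp in Jurkat replicate 1 and 38402 bp in Jurkat replicate 2. STAT5B and its neighbours STAT5A and STAT3 have overlapping windows. Each counts among the 7, so bases they share enter that count and the median more than once. STAT5A had 45171 bp in 6T-CEM, 21764 bp in Jurkat replicate 1 and 31438 bp in Jurkat replicate 2, and STAT3 had 46818 bp in 6T-CEM, 22761 bp in Jurkat replicate 1 and 31674 bp in Jurkat replicate 2. JAK1, a kinase used by most of these receptors, had 2773 bp in 6T-CEM, 324 bp in Jurkat replicate 1 and 370 bp in Jurkat replicate 2, at least 2-fold above both. IRAK1, a kinase of the IL-1 and IL-18 receptors, had 15566 bp in 6T-CEM, 9657 bp in Jurkat replicate 1 and 23810 bp in Jurkat replicate 2.

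Among 10 inhibitors and targets, 9 had bases. At 4 of these 6T-CEM exceeded each Jurkat library (52.3% of all genes with bases) and at 2 it fell short of each (15.3%). The counts were 3 and 3 at equal list length. GFI1, a transcriptional repressor gene, had 10467 bp in 6T-CEM, 2756 bp in Jurkat replicate 1 and 1331 bp in Jurkat replicate 2, at least 2-fold above both. SOCS2, a cytokine signalling inhibitor gene, had 1224 bp in 6T-CEM and none in either Jurkat library, past 2-fold with 500 bp added. PIM2, a survival kinase gene, had 0 bp in 6T-CEM, 3220 bp in Jurkat replicate 1 and 1679 bp in Jurkat replicate 2. FOXP3, the regulatory T-cell factor gene, had 0 bp in 6T-CEM, 1578 bp in Jurkat replicate 1 and 1007 bp in Jurkat replicate 2. Both genes passed 2-fold below each Jurkat library with 500 bp added (2.74% of all genes with bases). With 2000 bp added, within 10 kb, for the body alone and by nearest gene, 0 genes of this list did. Those at least 2-fold above, 2 as reported (14.9% of all genes with bases), numbered 1 at equal list length and 1 with 2000 bp added. They numbered 5 within 10 kb, 4 for the body alone, 3 when weighted by fold and 6 without Jurkat replicate 2. CISH, a STAT5-induced inhibitor gene, had 22522 bp in 6T-CEM, 9770 bp in Jurkat replicate 1 and 28470 bp in Jurkat replicate 2. BCL2, an anti-apoptotic gene, had 16949 bp in 6T-CEM, 6081 bp in Jurkat replicate 1 and 11800 bp in Jurkat replicate 2. SOCS3, an inhibitor of IL-6 signalling, had 1799 bp in 6T-CEM, 1753 bp in Jurkat replicate 1 and 6952 bp in Jurkat replicate 2.

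**Figure D5:**
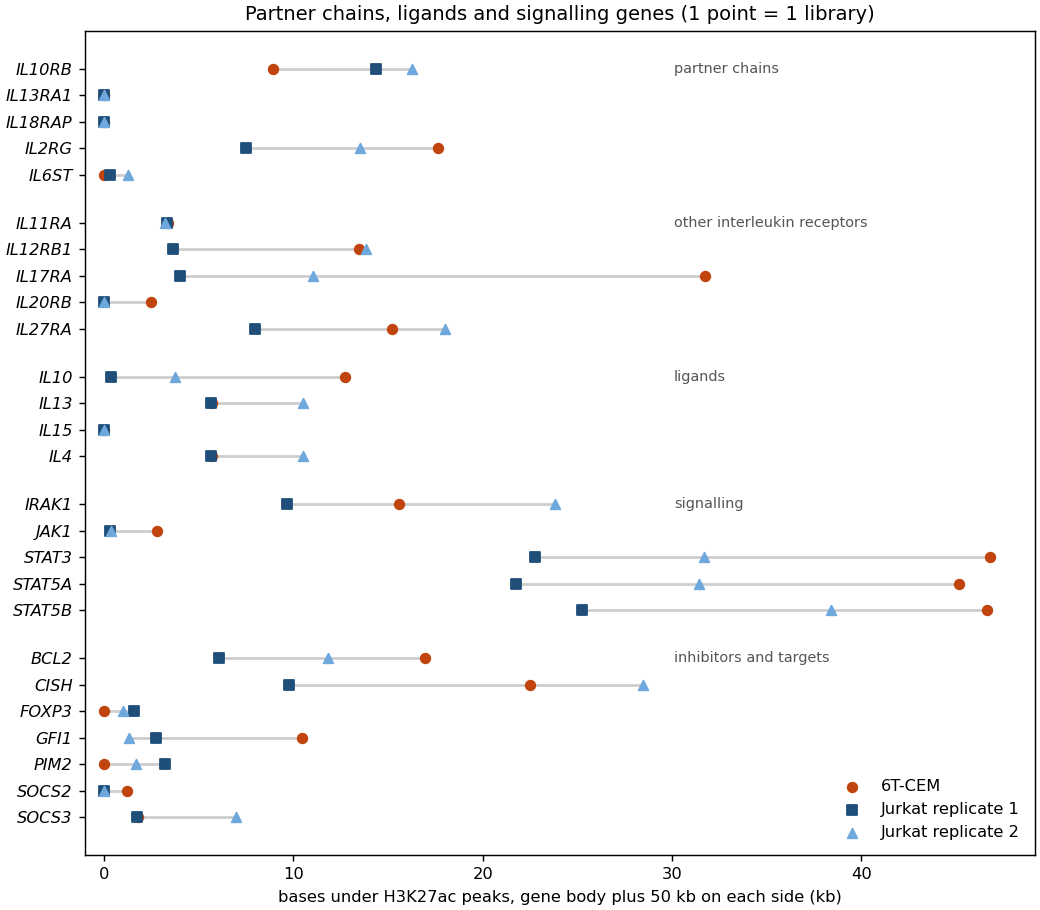
Bases under peaks within the body plus 50 kb on each side (kb, horizontal axis) for the partner chains, other receptors, ligands, signalling genes, inhibitors and targets named in the text, with 1 point per library. 6T-CEM points lie right of both Jurkat points at IL17RA, IL10 and GFI1 and left of both at IL10RB, PIM2 and FOXP3.

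Among these pathway genes, the one whose bases over the 3 libraries were closest to each receptor gene, by Euclidean distance of log2 bases with 500 bp added, was JAK3 for IL21R (distance 1.102), SOCS3 for IL4R (1.08), IL12RB1 for IL2RB (1.08) and JAK2 for IL7R (1.86). JAK3, a kinase bound to the common gamma chain, had 9911 bp in 6T-CEM, 428 bp in Jurkat replicate 1 and 6834 bp in Jurkat replicate 2. JAK2, a further JAK kinase, had 1228 bp in 6T-CEM, 916 bp in Jurkat replicate 1 and 457 bp in Jurkat replicate 2. JAK2 thus did not share the absence of IL7R from Jurkat replicate 2. IL2RA was closest to IL17RB (0.27) and IL10RA to IL22RA1 (0.50). IL6R and IL1RAP had the same values, 309 bp in 6T-CEM and none in either Jurkat library. With 3 libraries that differ in list length, likeness of this kind is a description of these lists.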

How the data were processed

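One H3K27ac peak list per library was used. The submitters' processing notes name Bowtie2 (2.2.5), MACS2 (2.2.7) and the build hg38. Options, and any use of IgG controls in peak calling, are not given in the sources used here. CUT&Tag is named in the series text, while the protocol in the labels describes sonication and antibody isolation. For each peak the authors deposited a fold enrichment, which is a ratio over background. The authors also deposited −log10 p and q values and a score for each peak. All were used as deposited. Peak names inside the lists begin with Jur for Jurkat replicate 1 and Jur-NE for Jurkat replicate 2, a difference that no label explains.

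Only chromosomes 1 to 22 and X were analysed, so peaks on alternate contigs did not count for any gene. Gene bodies and start sites came from RefSeq GRCh38.p14. Covered bases were summed within the body plus 50 kb on each side. Log2 ratios used 500 bp added to each value and were centred on the median of 15640 genes with bases in any library, which was 0.35 before centring, and −0.17 for Jurkat replicate 1 over 2. Peaks overlapped when sharing at least 1 base, and regions were joined at 12.5 kb. A peak's nearest gene was the protein-coding gene closest to its midpoint.

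The 8 genes and the pathway lists were chosen with earlier results of these data known. Named genes were the 8, their neighbours under described peaks, all partner chains, and of each other list the 4 with most bases and those at least 2-fold above or below both Jurkat libraries. Pseudoautosomal receptor genes were left out, since reads there cannot be placed on X or Y. No test was run, since 6T-CEM has 1 library and the Jurkat replicates alone would set the error. As alternatives, the settings tried were a minimum −log10 q of 5, 16159 peaks in each list, flanks of 10 and 100 kb, the body alone, nearest gene only, 2000 bp added, bases weighted by fold, start-site distances of 2.5 kb, an overlap of 50% of the shorter peak, and each Jurkat library left out. Functions for counting were tested on simulated data. Python 3.11.15 with NumPy 2.4.6, pandas 2.3.3 and matplotlib 3.10.9 was used.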

Additional observations from a re-analysis of the deposited data

How the results depend on the processing

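The counts of start-site peaks were the same at 2.5 kb, with −log10 q of 5 or more and at equal list length. Regions of Jurkat replicate 2 alone numbered 19 with −log10 q of 5 or more and 11 at equal list length. At equal list length 6T-CEM shared 2 regions with Jurkat replicate 2 only and 2 with Jurkat replicate 1 only. Under the alternatives run for the other 4 classes the counts stayed within 1.5 times the reported ones. Windows with a peak in 6T-CEM numbered 3 for the body alone. In Jurkat replicate 1 they numbered 0 for the body alone, 2 within 10 kb and 2 by nearest gene. Genes above both Jurkat libraries numbered 1 with −log10 q of 5 or more, 1 at equal list length and 4 within 100 kb. With a single Jurkat library they ranged from 3 to 4, the higher value without Jurkat replicate 2. Genes below both numbered 0 within 10 kb, 0 for the body alone, 0 by nearest gene and 0 when weighted by fold. With a single Jurkat library they ranged from 2 to 4, the higher value without Jurkat replicate 1. The median log2 ratio over the 8 genes, −0.41, was −0.042 at equal list length, −0.27 within 10 kb, −0.20 within 100 kb, −0.20 for the body alone, −0.28 by nearest gene, −0.25 with 2000 bp added and −0.26 when weighted by fold. With a single Jurkat library it ranged from −0.27 to −0.18. Within 10 kb, for the body alone and by nearest gene, the median was the ratio of genes with 0 bp in every library. IL2RA and IL18R1 were such genes there. In these settings the median thus gives the centring value and does not measure acetylation at the 8 genes. The cause of the other shifts was not tested. IL21R lay above both Jurkat libraries under every alternative run. No paired analysis was possible because 6T-CEM has a single library without a replicate number. Depth is unknown, so absence of a peak is absence from a list at its threshold.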
